A study of Mus musculus with 10 samples.

Results

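The 10 genes described here encode the core of the interleukin-6 (IL-6) family signalling route: the ligands Il6 and Lif, the receptor chains Il6ra, Il6st, Lifr and Osmr, the kinases Jak1 and Jak2, the transcription factor Stat3 and the feedback inhibitor Socs3. They were chosen by gene symbol from knowledge of the pathway, and all 10 were found among the 24620 gene entries of the count table. The measurements are 3′-end RNA-seq counts from muscle satellite cells (MuSCs), the stem cells of skeletal muscle, sorted 3 days after injury of adult mouse muscle with cardiotoxin (CTX), a snake venom toxin that destroys muscle fibres. Control mice were Trpm7+/+; Pax7CreERT2/+; Rosa26YFP and Trpm7 cKO mice were Trpm7flox/flox; Pax7CreERT2/+; Rosa26YFP, with 5 libraries per genotype. All mice were on the C57BL6 background, were 7 to 20 weeks old and received tamoxifen on 5 consecutive days. Both genotypes therefore carried 1 Pax7CreERT2 allele and the tamoxifen-induced YFP reporter, and differed in Trpm7, which encodes a magnesium-permeable channel with a kinase domain. The Cre recombinase was driven from the Pax7 locus, so deletion was directed to Pax7-expressing cells and their descendants, and each library was made from 3000 cells sorted as YFP-positive.

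IL-6 family cytokines are secreted by muscle fibres, satellite cells and immune cells of injured muscle. Each binds its own receptor chain, such as the IL-6 receptor, the LIF receptor or the oncostatin M receptor, together with the shared signalling chain gp130, which is the product of Il6st. Janus kinases attached to the receptors then phosphorylate STAT3, which enters the nucleus and switches on target genes, among them Socs3, whose product blocks gp130 and the attached kinases. In satellite cells this route is known to influence proliferation, differentiation and self-renewal after injury.

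Total counts per library were 914361 to 1097709 in control and 205986 to 581121 in Trpm7 cKO, so each molecule was worth more in the normalized scale of the cKO libraries. Mitochondrial transcripts took 12 to 16.5% of the counts in control and 8.82 to 10.6% in cKO. Trpm7 itself was not called (log2 fold change -0.09 ± 0.20 (SE), adjusted p = 0.723, edgeR's quasi-likelihood test, adjusted over all genes by Benjamini-Hochberg), with 66.6 to 90.1 CPM in control and 46.4 to 101 CPM in cKO. The position of the floxed part of the gene was not given in the sources used here, and a 3′ tag outside it would not check the deletion. The genotypes of these libraries therefore rest on the labels. The paper reports the deletion from Trpm7 mRNA and from TRPM7 staining in freshly isolated MuSCs of this mouse line. Satellite cell markers were present in both genotypes: the summed level of 20 satellite cell markers was 4206 ± 202 normalized CPM (counts scaled to library size, SD, n = 5) in control and 4652 ± 749 in cKO, and the groups overlapped (two-sided exact permutation test of the genotype labels, p = 0.254). That sum was lowest in cKO library 4, without which cKO was higher by 761 CPM (p = 0.00794, exact permutation test). Over all genes tested, 24.6% were called higher and 24.1% lower. Of 18 markers tested, 8 were higher, 5 lower and 5 not called. Among them Pax7, the transcription factor that defines satellite cells, was higher in cKO by 1.19 ± 0.18 on the log2 scale and Myod1, a master regulator of myogenesis, was lower with a log2 fold change of -2.01 ± 0.16.

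All 10 genes were higher in Trpm7 cKO than in control MuSCs, with no overlap between the normalized levels of the 5 control and the 5 cKO libraries. Over all genes tested, which leave out Il6ra, 16.6% showed that pattern. For Il6ra the highest control library and the lowest cKO library both held 4 molecules, at 4.01 and 7.36 CPM. Of the 9 members with enough counts to be tested, 9 were called higher and 0 lower at an adjusted p below 0.05, and 6 of them also passed the study's own limit of a log2 fold change above 1.5. Over all 7753 genes tested, 24.6% were called higher, 24.1% lower and 8.49% higher past the study's limit. The count of members called carries a limit: Il6, Lif, Lifr and Jak2 passed the filter on low counts (13.4 CPM in at least 5 libraries) only with the help of the cKO libraries, and Il6ra did not pass it. A fit with no filter included all 10 members and called 10 higher, where 13.1% of the genes were called higher. The call of Il6ra in that fit rested on 1 to 4 molecules a control library.

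The ligands had the highest fold changes of the tested members, and both passed the filter only with the help of the cKO libraries. In the fit with no filter, which held Il6ra too, Il6ra had 3.34 on the log2 scale, above Lif (3.08) and Il6 (2.97). Il6, the cytokine that gives the family its name, was measured at 0.994, 2.06, 4.29, 9.04 and 16.2 normalized CPM in control libraries 1 to 5 and at 46.2, 46.0, 73.1, 54.7 and 93.8 in cKO libraries 1 to 5. Every cKO library stood at 2.84 times the highest control or more. The log2 fold change was 3.17 ± 0.41 (SE, adjusted p = 5.77e-06, edgeR), an 8.98-fold difference that rested on 30 molecules over the control and 120 over the cKO libraries. The control libraries themselves spanned 1 to 14 molecules, so the control level is known less well than the cKO level.

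Lif, which encodes leukemia inhibitory factor, a ligand of the Lifr-gp130 pair, was measured at 5.97, 12.4, 8.58, 6.02 and 9.26 CPM in control and at 128, 101, 47.5, 38.1 and 99.3 CPM in cKO. No control reached the lowest cKO library. Its log2 fold change was 3.27 ± 0.34 (adjusted p = 3.95e-07, edgeR). The 2 ligands did not follow one another within the cKO group: Il6 was highest in library 5 and Lif in library 1.

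The sequence just before the annotated start of each ligand gene is shown for 2 reasons. The 2 genes had the highest fold changes of the members tested after the filter, and this stretch of Il6 is known to carry sites for inducible factors. Il6 lies on chromosome 5 (chr5:30013114-30019981, plus strand, GRCm38, GENCODE vM21) and Lif on chromosome 11 (chr11:4257557-4272514, plus strand). The windows are from RefSeq (GRCm38.p6), chr5:30012864-30013113 and chr11:4257318-4257556, both on the plus strand and cut before the first annotated base of the gene in GENCODE. Capitals mark matches on either strand to AP-1 (TGANTCA), C/EBP (TTGNGCAAT) and NF-kappa-B (GGGANTTTC), which did not overlap one another.
Il6: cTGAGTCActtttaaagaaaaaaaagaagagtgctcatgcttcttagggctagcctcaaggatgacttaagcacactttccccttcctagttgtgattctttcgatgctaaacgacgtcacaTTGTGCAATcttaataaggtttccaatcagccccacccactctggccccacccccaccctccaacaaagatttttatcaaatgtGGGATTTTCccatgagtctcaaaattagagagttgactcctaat
Lif: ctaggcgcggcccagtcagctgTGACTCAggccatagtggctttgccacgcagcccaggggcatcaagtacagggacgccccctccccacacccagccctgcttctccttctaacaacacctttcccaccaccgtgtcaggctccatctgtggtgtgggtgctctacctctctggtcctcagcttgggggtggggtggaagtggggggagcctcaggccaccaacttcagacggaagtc
The Il6 window held 1 match to each of the 3 motifs, 249, 128 and 44 bases before the start, and the Lif window held an AP-1 match, 228 bases before the start that RefSeq gives, which lies slightly inside the GENCODE gene. Among the other members only Osmr held the AP-1 letters, just past its start. Among 32851 promoter windows of 300 bases, 7.81% held the AP-1 letters, 0.597% the C/EBP letters and 1.11% the NF-kappa-B letters. These 3 motifs were chosen after the sequences had been seen, and a match is a description of the letters, not of a bound factor.

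**Figure D1:**
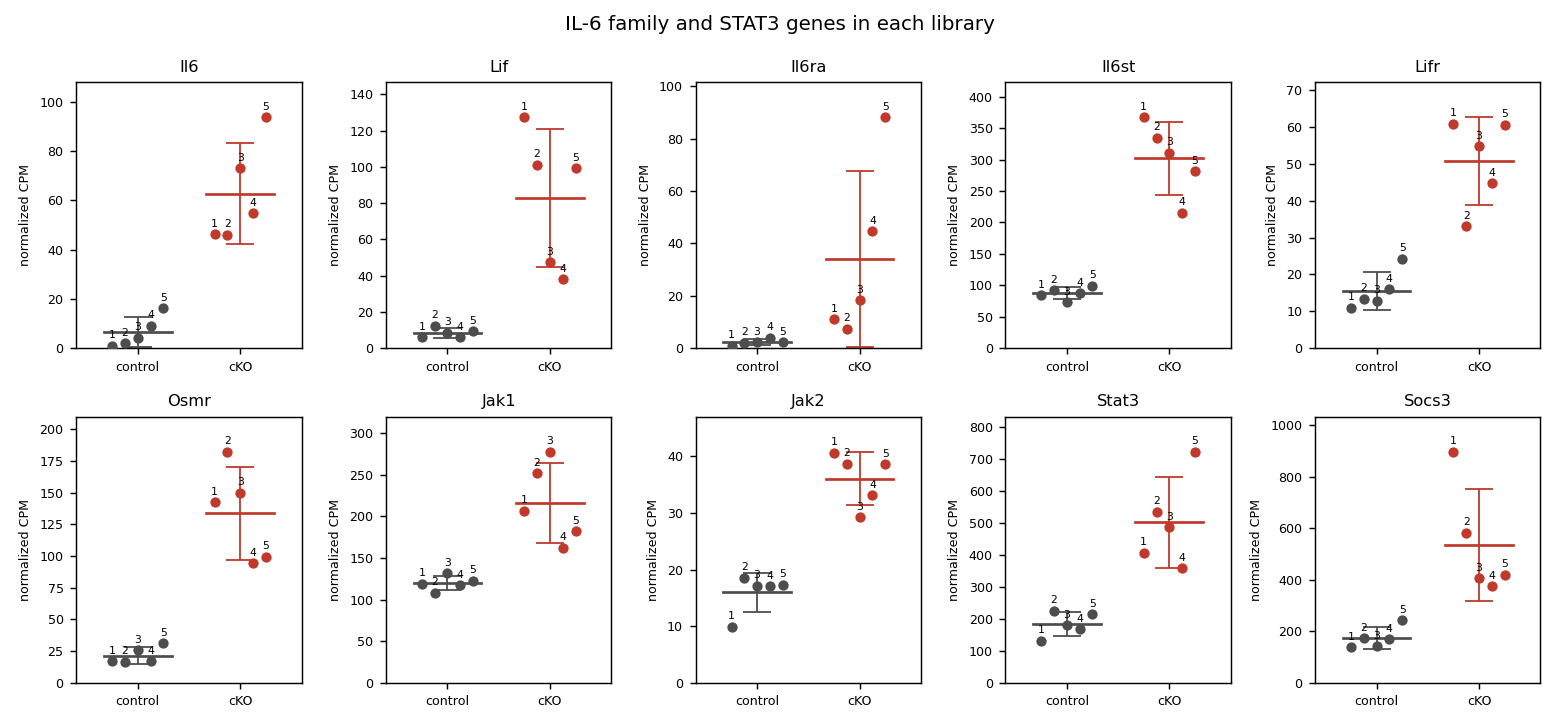
Normalized CPM (vertical axes, from 0) of each of the 10 genes in 5 control libraries (grey) and 5 Trpm7 cKO libraries (red). Small numbers give the replicate, lines the mean and bars 1 SD; in every panel the lowest cKO library lies above the highest control library, and Il6ra in cKO ranges from 7.36 to 88.3.

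All 4 receptor chains were higher in cKO. Il6st (chr13:112464070-112510086, plus strand), which encodes the shared chain gp130, was the most abundant of them, with 84.5, 91.9, 72.9, 87.3 and 99.6 CPM in control and 368, 335, 311, 215 and 281 CPM in cKO. The lowest cKO library was 2.16 times the highest control. Its log2 fold change was 1.79 ± 0.16 (adjusted p = 5.46e-08, edgeR), with a 95% interval of 1.46 to 2.13.

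Osmr (chr15:6813577-6874969, minus strand), the chain that pairs with gp130 to bind oncostatin M, changed most among the tested chains. It was measured at 16.9, 16.5, 25.7, 17.1 and 31.3 CPM in control and at 142, 182, 150, 94.4 and 99.3 CPM in cKO, so that the groups were separated by a factor of 3.02. On the log2 scale it was higher by 2.66 ± 0.23 (95% interval 2.18 to 3.14, adjusted p = 3.44e-08, edgeR). That interval lay just above the interval of Il6st; the difference between the 2 chains was not itself tested.

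Lifr (chr15:7090614-7197489, plus strand), the receptor chain for LIF, stood at 10.9, 13.4, 12.9, 16.1 and 24.3 CPM in control and at 61.0, 33.1, 54.8, 44.7 and 60.7 CPM in cKO. Its groups came closest among the receptors, with the lowest cKO library 1.36 times the highest control. A log2 fold change of 1.67 ± 0.26 (adjusted p = 2.92e-05, edgeR) was found, resting on 73 molecules in control and 104 in cKO.

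Il6ra (chr3:89864059-89913196, minus strand), the chain that binds IL-6 itself, was the least abundant member. It gave 1, 2, 2, 4 and 2 molecules in control libraries 1 to 5 and 6, 4, 5, 27 and 16 in cKO libraries 1 to 5, or 0.994 to 4.01 CPM against 11.1, 7.36, 18.3, 44.7 and 88.3 CPM. Libraries 4 and 5 held most of the cKO molecules. With no filter the log2 fold change was 3.34 ± 0.46 (edgeR without the filter), with no p-value given because the control counts were so low. No control library reached the level of the filter, and the gene passed it only when cKO replicate 2, its lowest cKO library, was left out, so no test from that setting is given.

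The kinases changed least. Jak1 (chr4:101152367-101265282, minus strand), which serves most receptors of the family, was measured at 119, 108, 132, 118 and 123 CPM in control and at 207, 252.1, 278, 162 and 182 CPM in cKO. The groups were apart, but the lowest cKO library was only 1.23 times the highest control. Jak1 was higher by 0.85 ± 0.16 on the log2 scale (adjusted p = 1.75e-04, edgeR).

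Jak2 (chr19:29251828-29313080, plus strand), another kinase of these receptors and of hormone receptors, stood at 9.94, 18.6, 17.2, 17.1 and 17.4 CPM in control and at 40.6, 38.6, 29.2, 33.1 and 38.6 CPM in cKO. Control library 1 was low, with 10 molecules, and cKO library 5 rested on 7 molecules. Its log2 fold change was 1.18 ± 0.24 (adjusted p = 4.37e-04, edgeR).

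Stat3, the transcription factor of the route, was the most abundant member in control. Its levels were 132, 225, 180, 169 and 214 CPM in control and 406, 536, 486, 358 and 723 CPM in cKO. No control reached the lowest cKO library, which was 1.59 times the highest control. The log2 fold change was 1.43 ± 0.19 (adjusted p = 3.68e-06, edgeR). The Stat3 gene (chr11:100885098-100939540, minus strand) runs towards Stat5a on the plus strand, and Stat5a exons cover 72 of the last 500 bases of Stat3 in GENCODE vM21. The strand setting of the counting was not given in the sources used here, so reads in that stretch cannot be assigned to either gene with certainty, and Stat5a was itself higher in cKO. For Jak1 the same overlap, with Raver2, came to 4 bases, and the other 8 members had none.

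Socs3, the feedback inhibitor of gp130 signalling, was measured at 137, 174, 142, 170 and 243 CPM in control and at 896, 582, 406, 374 and 419 CPM in cKO. Library 1 stood highest in cKO and the lowest cKO library was 1.54 times the highest control. The log2 fold change was 1.65 ± 0.23 (95% interval 1.16 to 2.13, adjusted p = 1.80e-05, edgeR). Socs3 per Stat3 molecule ranged from 0.771 to 1.14 in control and from 0.58 to 2.2 in cKO, a log2 difference of 0.15 that did not pass an exact permutation test of the genotype labels (two-sided, p = 0.667).

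STAT3 binds the palindrome TTCNNNGAA, and Socs3 is a textbook STAT3 target, so the RefSeq promoter windows of the members (250 bases before to 50 after the start) were searched for it. All 10 members were matched by symbol, with 11 windows, and only Socs3 held the motif, where 8.30% of the 32851 windows held it. The match and 10 bases on each side, from chr11:117969502-117969530 on the minus strand (GRCm38.p6), are shown with the motif in capitals.
Socs3: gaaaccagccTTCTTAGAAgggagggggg
The match lay 154 bases before the RefSeq start and inside an intron of the longer gene in GENCODE vM21 (chr11:117966079-117970047). The absence of these letters from the other windows says nothing of binding elsewhere.

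Each molecule was counted once at its 3′ end, so levels can be compared between genes without division by length. In control the mean levels ran from Stat3 (184 CPM), Socs3 (173), Jak1 (120) and Il6st (87.2) down to Osmr (21.5), Jak2 (16.0), Lifr (15.5), Lif (8.44), Il6 (6.52) and Il6ra (2.31). The ranges of neighbours overlapped except between Socs3 and Jak1, between Jak1 and Il6st, and between Il6st and Osmr. In cKO the order was Socs3 (535), Stat3 (502), Il6st (302), Jak1 (216), Osmr (134), Lif (82.7), Il6 (62.8), Lifr (50.9), Jak2 (36.1) and Il6ra (34.0), and all neighbouring ranges overlapped. Il6st stood below Jak1 in every control library and above it in every cKO library.

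The members were also set against Jak1 within each library, a ratio that needs no scaling between libraries. Il6st molecules per Jak1 molecule went from 0.553 to 0.848 in control to 1.12 to 1.78 in cKO. Osmr per Jak1 went from 0.142 to 0.255 up to 0.539 to 0.723, and Lif per Jak1 from 0.050 to 0.114 up to 0.171 to 0.616. For these 3 genes and Il6 the groups did not overlap, and the exact permutation test of the genotype labels gave p = 0.00794, the smallest it can give (adjusted p = 0.0179 over 9 comparisons). The ratios of Il6ra, Lifr, Stat3 and Socs3 were also higher in cKO, with overlap between groups and adjusted p of 0.0286, 0.0447, 0.0408 and 0.0357 in the same exact permutation test. Jak2 per Jak1 did not pass it, with a log2 difference of 0.37 (adjusted p = 0.19, exact permutation test). Jak1 was taken as the base after its values had been seen, because it changed least. That choice favours higher ratios in cKO for the other members, so these p-values are a description.

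The smaller changes depended on what a library was scaled to. Both genotypes gave 3000 sorted cells a library, and when the counts were compared per 3000 cells, with no correction for the lower totals of cKO, the median of all genes moved to -1.15 on the log2 scale, with 380 genes called higher and 5162 lower. On that scale Il6 (1.98), Lif (2.14) and Osmr (1.53) were called higher, 3 of 9 members against 4.9% of all genes tested. Il6 and Lif had passed the filter only with the help of the cKO libraries. Of the 5 members that passed it on the control libraries alone, only Osmr was called. The other 6 members were not called, with log2 differences from 0.64 for Il6st down to -0.32 for Jak1, the single member whose direction turned. In bulk samples fewer cells captured and less RNA per cell cannot be told apart, nor either of them here from lower recovery of molecules. Under RLE factors, total counts alone and scaling on satellite cell markers, all 9 kept their direction and call. Over all genes tested, 25.1, 27.9 and 19.8% were called higher under these 3 scalings.

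**Figure D2:**
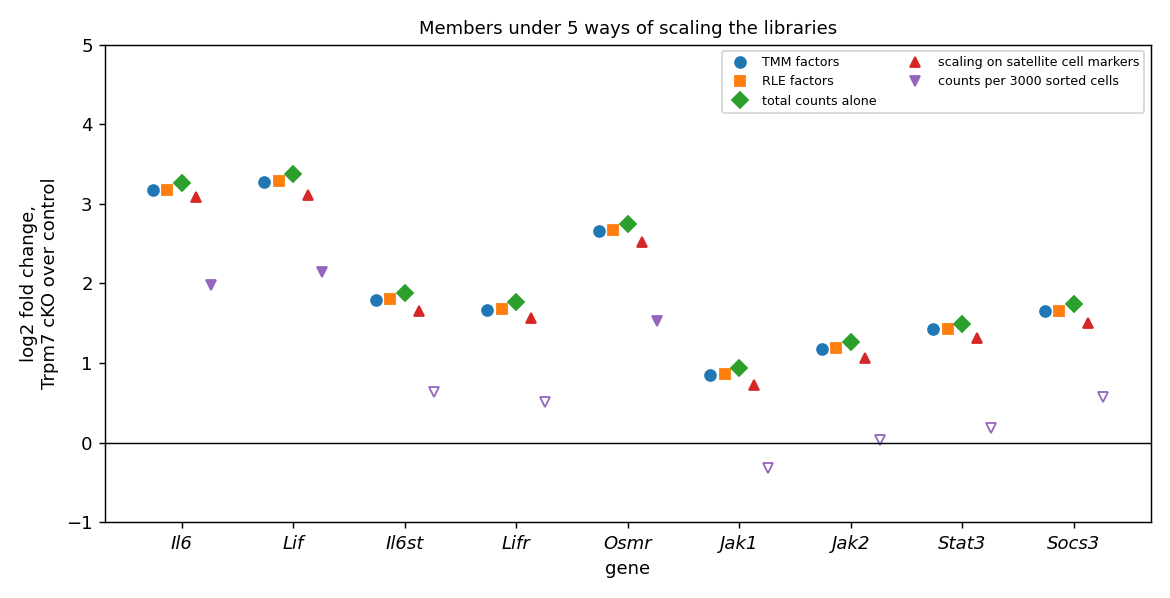
Log2 fold change of the 9 tested members (vertical axis, Trpm7 cKO over control) under 5 ways of scaling the libraries; filled symbols passed an adjusted p of 0.05 by edgeR and open symbols did not. The first 4 scalings lie close together for each gene, and counts per 3000 sorted cells lie lower, with Jak1 below 0 at -0.32.

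The other genes of the pathway were counted from a list of 49 symbols arranged by role. Of these, 44 were in the table and 31 had enough counts to be tested; 22 were higher in cKO, 3 were lower and 6 were not called, with a median log2 fold change of 0.75 against -0.01 over all genes tested, of which 24.6% were called higher and 24.1% lower. Of the 31 genes, 7 (Il11ra1, Stat2, Stat5a, Stat6, Ptpn6, Bcl3 and Il4ra) passed the filter only with the help of the cKO libraries; of the other 24, 15 were higher and 3 lower, with a median of 0.58. The list was put together with earlier results of these data known, so its count is a description.

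Among 7 other ligands and ligand subunits 1 was tested. Clcf1, a cytokine of the family, rose by 1.36 ± 0.22 on the log2 scale (adjusted p = 4.23e-05, edgeR). Osm, which encodes oncostatin M, the ligand of Osmr, did not pass the filter. It gave 1, 0, 0, 0 and 1 molecules in control and 14, 5, 10, 30 and 9 in cKO, so that the groups did not overlap. Il11, with 5 molecules over control and 4 over cKO, and Ctf1, which encodes cardiotrophin 1, were near 0 in both genotypes.

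Of 4 other receptor chains 1 was tested. Il11ra1, which binds IL-11, was higher in cKO with a log2 fold change of 3.50 ± 0.37 (adjusted p = 1.04e-06, edgeR). It went from 9.09 CPM in control to 53.6 CPM or more in each cKO library, and passed the filter only with the help of the cKO libraries. Il27ra had no count in any library.

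The 4 other STAT genes that were tested from the list were higher in cKO, beside 24.6% of all genes tested. Of these 4, Stat2, Stat5a and Stat6 passed the filter only with the help of the cKO libraries. Stat5a and Stat5b, which serve growth hormone and many cytokine receptors, had log2 fold changes of 2.11 ± 0.28 and 1.68 ± 0.24. Stat2, a factor of interferon signalling, had 2.05 ± 0.24, and Stat6, the factor of IL-4 signalling, had 1.09 ± 0.31. All 4 had an adjusted p of 0.00648 or lower (edgeR), and the value of Stat3, 1.43, lay within their range. Tyk2 and Jak3 were below the filter.

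The inhibitors and phosphatases were split: of 10 tested, 7 were higher (24.6% over all genes), 2 lower (24.1% over all genes) and 1, Ptpn11, was not called. Ptpn6 passed the filter only with the help of the cKO libraries. Of the other 9, 6 were higher and 2 lower, with a median log2 fold change of 0.565. Socs2, an inhibitor of growth hormone signalling, was higher by 1.5 ± 0.19 (adjusted p = 2.62e-06, edgeR), in the same direction as Socs3. Socs1, the closest functional relative of Socs3 and an inhibitor of interferon receptors, moved the other way, with a log2 fold change of -0.85 ± 0.19 (adjusted p = 8.67e-04, edgeR), from 66.5 CPM in control to 27.6 to 46.2 CPM in cKO. Pias2, which encodes a SUMO ligase named as a STAT inhibitor, was also lower (-0.64 ± 0.20). The largest change of the group was Ptpn6, the phosphatase SHP-1, which is mainly a gene of blood cells, at 4.03 ± 0.43. It rested on 1 to 5 molecules a control library. Ptpn1, a phosphatase of Janus kinases, and Pias4, a SUMO ligase, were higher by 0.75 ± 0.20 and 0.72 ± 0.23.

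Of 20 genes known as STAT3 targets, 15 were tested: 9 were higher, 1 was lower and 5 were not called, beside 24.6% higher and 24.1% lower over all genes. Bcl3 and Il4ra passed the filter only with the help of the cKO libraries. Of the other 13, 7 were higher and 1 lower, with a median log2 fold change of 0.515. Cebpd, a transcription factor of the acute-phase response, showed the largest change, at 3.66 ± 0.28 (adjusted p = 8.32e-08, edgeR). Other large changes were those of the AP-1 subunit gene Junb (2.50 ± 0.28), Cebpb (2.31 ± 0.25), the NF-kappa-B cofactor gene Bcl3 (2.24 ± 0.30) and the interferon regulatory factor gene Irf1 (1.91 ± 0.18). The other 4 higher genes, Pim1, Il4ra, Mcl1 and Hif1a, ranged from 2.58 for Pim1 to 0.42 for Hif1a. Birc5, which encodes survivin and peaks in dividing cells, was lower at -1.08 ± 0.15. Myc, Ccnd1, Bcl2l1, Vegfa and Timp1 were not called, with log2 fold changes of 0.25, 0.45, 0.51, 0.08 and 0.12. The acute-phase genes Lcn2 and Saa3 stayed at 2 molecules or fewer in every library of both genotypes.

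**Figure D3:**
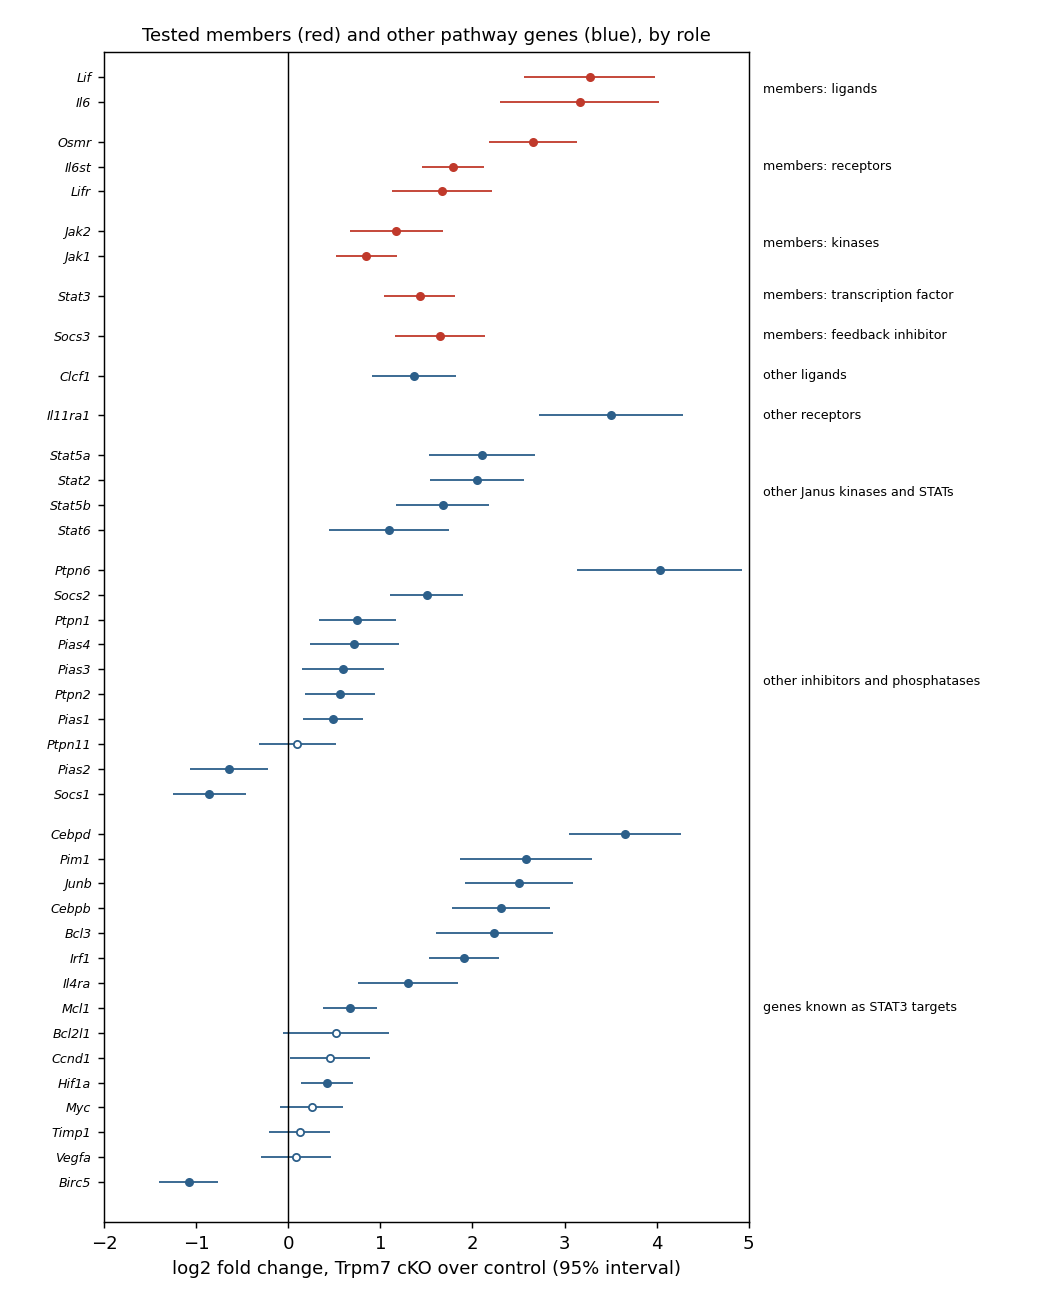
Log2 fold change with its 95% interval (horizontal axis, Trpm7 cKO over control) of the 9 tested members (red) and 31 other pathway genes (blue), grouped by role; open symbols did not pass an adjusted p of 0.05 by edgeR. Most intervals lie right of 0, and Socs1, Pias2 and Birc5 are the 3 genes called lower.

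The genes whose levels ran most alike with Stat3 over the 10 libraries (Pearson correlation of log2 CPM, given as a description, since the genotype difference and the depth are shared by all points) were Slc10a6 (0.99), a sodium-dependent sulfosteroid transporter gene, Cebpb (0.987) and the noncoding RNA gene Meg3 (0.986). For Socs3 they were Mbtps1 (0.991), a protease gene, Fos (0.985), an AP-1 subunit and early-response gene, and Ampd3 (0.976), an enzyme of nucleotide metabolism.

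Markers of other cell types and of cell handling moved with the same contrast. The summed level of 10 leukocyte markers was 97.4 to 149 CPM in control and 329 to 1645 CPM in cKO, and 7 of the 7 tested were higher. For 12 macrophage markers the sums were 196 to 330 and 905 to 3819 CPM, with 10 of 10 tested higher, and Adgre1 and Cd68, a pair of defining markers, had log2 fold changes of 3.43 and 3.33. Of these tested markers, 5 leukocyte and 7 macrophage genes, among them Adgre1 and Cd68, passed the filter only with the help of the cKO libraries. Over all genes tested, 24.6% were called higher. The fibroadipogenic progenitor list went from 1449 to 2663 CPM in control to 2784 to 5305 in cKO, the endothelial list from 5.36 to 55.6 up to 105 to 563, and the pericyte and smooth muscle list from 414 to 669 up to 899 to 1281. Neutrophil markers reached 49.7 CPM at most, and the 5 lymphocyte markers in the table had 0 counts in control and 10 in all in cKO. Genes that rise during tissue dissociation, among them Fos, Egr1 and Atf3, summed to 4557 to 6300.0 CPM in control and 10255 to 19163 in cKO, and 11 of 13 were higher. For each of these lists except those of neutrophils, lymphocytes and satellite cells the exact permutation test of the genotype labels gave its smallest p of 0.00794 (adjusted p = 0.0119 over 9 lists). The neutrophil and lymphocyte lists gave p = 0.0238 and p = 0.0476 in the same exact test (adjusted p = 0.0306 and 0.0536). Without any 1 control library the lymphocyte list gave p = 0.0873 in that exact test. The part of these cells and of handling in the levels of the members was not tested.

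Within the cKO group the members differed in how they stood beside these lists. The leukocyte sum was 911, 329, 946, 1561 and 1645 CPM in cKO libraries 1 to 5. Il6ra put the 5 libraries in that same order, with 7.36 CPM in library 2 and 88.3 in library 5, and Osm was likewise lowest in library 2, at 9.20 CPM, and highest in libraries 4 and 5, at 49.7 CPM in both. Il6 was also lowest in library 2, at 46.0 CPM against 46.2 in library 1, and highest in library 5, at 93.8 CPM. Lifr was lowest in library 2 and Jak2 in library 3. Il6st, Osmr, Lif, Jak1, Stat3 and Socs3 were instead lowest in library 4. There the macrophage sum was highest at 3819 CPM and the dissociation sum lowest at 10255 CPM. Of these 6 genes, Stat3 was highest in library 5, at 723 CPM, where the leukocyte sum was highest. Library 2 had the lowest leukocyte and macrophage sums of the cKO group, 329 and 905 CPM. Both were still above the highest control sums, 149 and 330 CPM. All 10 members were above every control library there, as they were in each cKO library. Library 1 had the highest dissociation sum, 19163 CPM, and the highest levels of Socs3, Lif, Il6st, Lifr and Jak2. With 5 libraries these orders are descriptions.

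**Figure D4:**
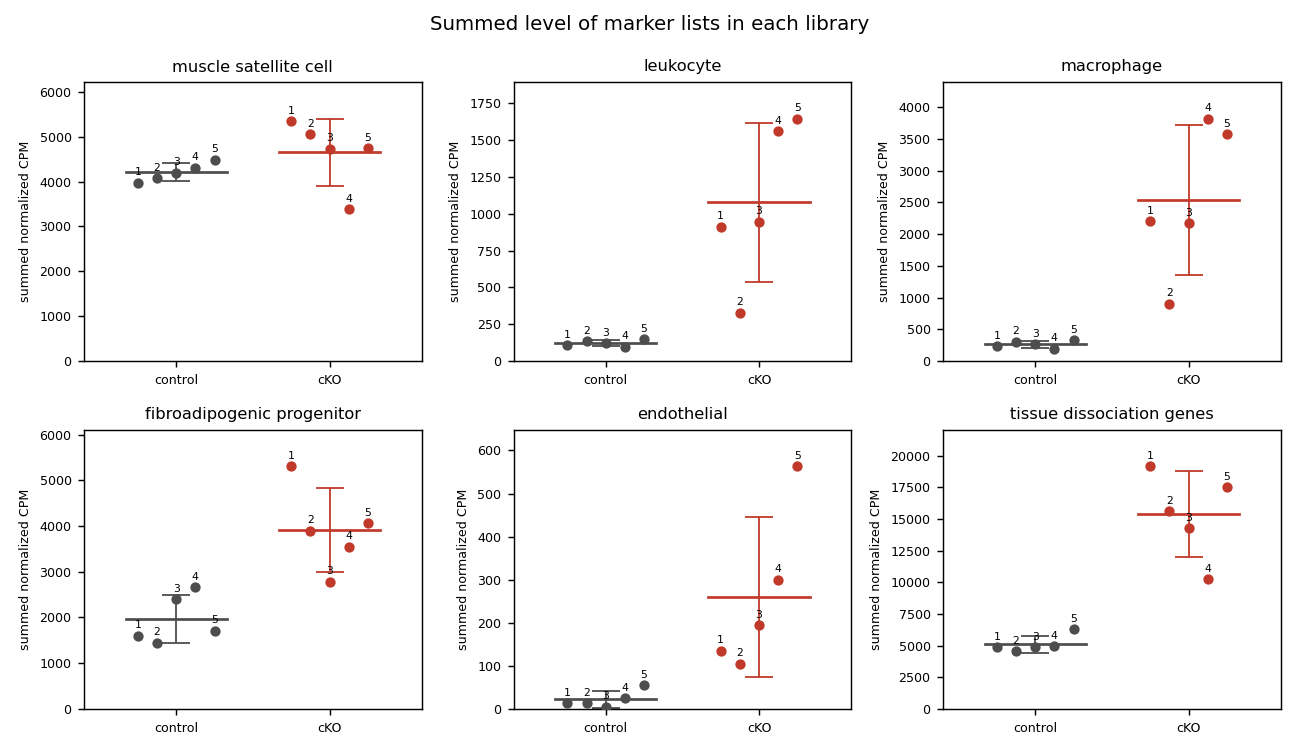
Summed normalized CPM (vertical axes, from 0) of 6 marker lists in 5 control (grey) and 5 Trpm7 cKO libraries (red), with replicate numbers, means and 1 SD. Satellite cell sums overlap between genotypes, while the leukocyte sums of cKO range from 329 to 1645, above the highest control at 149.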

How the data were processed

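MuSCs were sorted as YFP-positive cells, and CEL-Seq2 libraries, which tag the 3′ end of each RNA with a unique molecular identifier, were sequenced with insert reads of 81 bases. The authors extracted identifiers and removed duplicates with UMI-tools 1.1.4, trimmed with Trim Galore 0.6.10, mapped to GRCm38 with HISAT2 2.2.1 and assigned reads with featureCounts 2.0.6, and they tested with DESeq2 1.30.1. The annotation release and the strand setting were not given in the sources used here. The deposited table holds raw counts of molecules for 24620 entries (24608 symbols, 12 of them on a further line), with total counts of 205986 to 1097709 a library.

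Genotypes were taken from the labels. Genes were kept with filterByExpr (minimum count 10, total 15), scaled with TMM factors and tested with edgeR 4.0.16 (quasi-likelihood, R 4.3.3, Benjamini-Hochberg over 7753 genes), with DESeq2 1.42.0 and limma 3.58.1 as alternatives. Unlike the study, which used DESeq2, the main test here was edgeR's. Normalized CPM are counts scaled to the library total times its TMM factor. Standard errors are the log2 fold change divided by the square root of the test statistic, and intervals cover 95%. Marker sums were compared with exact permutation tests. On simulated data of 7998 genes with these library sizes and groups, edgeR recovered 72% of genes changed by 1 on the log2 scale. It recovered 100% of those changed by 2, with 8 of 7798 unchanged genes called. The simulation gave every gene the same spread and changed 100 genes by each amount, none of them low in counts. These rates therefore need not hold for the data here or for members with low counts.

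No source said which libraries came from separate mice, so p-values measure the spread between these libraries. Library names of cKO replicates 4 and 5 share a number whose meaning was not stated. Within each genotype every pair of libraries differed beyond sampling noise (smallest chi-square per degree of freedom 1.47). The 10 members, the pathway and marker lists and the tests were chosen with earlier results of these data known. The genes named were the members, Trpm7, pathway genes past the adjusted p (at most 6 a role, with those in counts of 5 or fewer), and the 3 genes most alike Stat3 and Socs3. A few genes of the pathway list are not reported here, and its counts leave them out. Pathway genes below the filter, Pax7, Myod1 and single markers were named after their values had been seen. Counts per 3000 cells, ratios to Jak1 and Stat3, motifs other than that of STAT, and orders of libraries were added after the data had been seen.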

Additional observations from a re-analysis of the deposited data

Results flagged for a closer look

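In 40 groups of 5 libraries (10 members, Trpm7 and marker sums by genotype), 2 held a library that stood apart by Dixon's criterion for 5 samples; about 1 group in 20 would do so by chance. Jak2 in control was 9.94 normalized CPM in library 1, against 17.1 to 18.6 in the other 4, with a gap of 0.824 of the range. The summed tissue dissociation genes in control were 6300.0 CPM in library 5, with a gap of 0.773 of the range. That library also had the highest control levels of Il6, Il6st, Lifr, Osmr and Socs3, and it lay below every cKO library for all of them.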

How the results depend on the processing

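With DESeq2, limma-voom, RLE factors, total counts alone, satellite marker scaling, the replicate block and cKO replicates 4 and 5 summed, 9 of 9 members were called higher and 0 lower. Under these settings 19.8 to 27.9% of all genes tested were called higher. Leaving out each library gave 9 to 10 higher members and 0 lower, and 21 to 24 higher and 3 lower pathway genes. The count of 10 came from leaving out cKO replicate 2, the lowest cKO library of Il6ra, which let Il6ra pass the filter. In these fits 22.7 to 25.9% of the genes tested were called higher. A stricter filter (30 counts in 5 libraries) left 4 members, all 4 higher, and 15 higher pathway genes. There 27% of the genes tested were called higher. Thinning to the smallest library left 6 members, all 6 higher, and 13 higher pathway genes, where 23.1% of the genes tested were called higher. Fewer genes were tested under both. Per 3000 sorted cells, added after the data had been seen, 3 members were higher and Jak1 turned to -0.32 (adjusted p = 0.43, edgeR). On that scale 9 pathway genes were higher and 7 lower, where 4.9% of all genes tested were called higher and 5162 of 7753 lower. Il6ra, below the main filter, has no value in most settings.

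The replicate numbers did not pair the libraries: same-numbered deviations correlated between -0.118 and 0.181, and 1 of 5 numbers matched itself best. The replicate block gave 9 higher members, and 21 higher and 3 lower pathway genes, where 1814 of 7753 genes were called higher and 1758 lower. The cause of the lower cKO totals was not tested, and libraries of 205986 to 581121 counts limit genes as low as Il6ra and Jak2, which rested on 4 to 27 and 7 to 22 molecules a cKO library.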
